A study of Mus musculus with 23 samples.

Results

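Transcripts of 9 calcium-responsive signalling genes were followed in brain RNA of mice carrying a mutation in Grin2b, the gene of the GluN2B subunit of the NMDA receptor. They are the 4 CaMKII subunit genes (Camk2a, Camk2b, Camk2d and Camk2g), the CaMKIV gene Camk4, 3 calcineurin subunit genes (Ppp3ca, Ppp3cb and Ppp3r1) and the kalirin gene Kalrn. Each was taken as the row of the gene table whose Ensembl identifier maps to its symbol, which gave 9 of the 18848 genes. The choice used no measured value, but it was made with earlier results of these data known.

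All mice were male C57BL/6J animals at postnatal day 17. The groups were 6 libraries of Grin2b C456Y heterozygotes given DCS (HT DCS), 6 of heterozygotes given vehicle (HT vehicle), 5 of wild-type mice given DCS (WT DCS) and 6 of wild-type mice given vehicle (WT vehicle). DCS commonly stands for D-cycloserine, a partial agonist that binds where glycine does on the NMDA receptor. The name is not spelled out in the labels, which give no dose or interval. The tissue label is brain without a region. Whether each library is a separate mouse is not given, so the p-values measure the spread between these libraries, which may be technical.

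Calcium that enters through NMDA receptors binds calmodulin, and calcium-loaded calmodulin switches on both a kinase arm and a phosphatase arm. CaMKII is a holoenzyme of many subunits that phosphorylates itself at a threonine of its regulatory segment and then stays active after calcium has fallen; in synapses it binds GluN2B and is required for many forms of long-term potentiation. Calcineurin is a phosphatase of a catalytic A subunit and a calcium-binding B subunit, and it takes part in long-term depression and in nuclear import of NFAT factors. CaMKIV is a largely nuclear kinase that phosphorylates CREB, and kalirin is a guanine nucleotide exchange factor of dendritic spines whose Kalirin-7 form is a CaMKII substrate.

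The regulatory segment of CaMKII is encoded by related sequences in its paralogous genes, and the stretches around the autophosphorylated threonine are shown for 3 of them as an example of how far the transcripts differ; Camk2a is not shown. They are the coding strand of exon 11 in GENCODE M21 transcripts on GRCm38, with the threonine codon in capitals.
Camk2b (chr11:5988976-5989020, minus strand): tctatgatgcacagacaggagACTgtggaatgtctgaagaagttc
Camk2d (chr3:126797720-126797764, plus strand): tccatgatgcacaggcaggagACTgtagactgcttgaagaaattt
Camk2g (chr14:20760418-20760462, minus strand): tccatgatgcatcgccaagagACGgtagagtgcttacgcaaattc
Of the 45 bases, Camk2b and Camk2d shared 37, Camk2d and Camk2g shared 34, and Camk2b and Camk2g shared 30. Camk2g used the codon ACG, whereas Camk2b and Camk2d used ACT. Over whole annotated transcripts, Camk2a and Camk2b had 6 words of 31 bases in common, Camk2a and Camk2d had 2, Camk2d and Ppp3r1 had 1, and the other pairs among the 36 had 0. Few stretches of that length could thus be assigned to more than 1 of the 9 genes; other genes and pseudogenes were not compared.

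The promoters of Camk2b, Camk2d and Ppp3cb are shown because the levels of these 3 genes correlated over the 23 libraries (Pearson's r of 0.79 to 0.85). These correlations were weaker among libraries with replicate numbers 4 to 6 (0.29 to 0.36). The choice was thus made from these same data, and shared control of these genes was not tested. RefSeq promoter entries on GRCm38.p6, covering 250 bases before to 50 after the start, were found for 5 of the 9 genes (these 3, Ppp3r1 and Kalrn). Capitals mark the GC box GGGCGG and the partial cyclic AMP response element that reads TGACG, each searched on both strands; overlapping matches are counted.
Camk2b (chr11:6065699-6065998, minus strand): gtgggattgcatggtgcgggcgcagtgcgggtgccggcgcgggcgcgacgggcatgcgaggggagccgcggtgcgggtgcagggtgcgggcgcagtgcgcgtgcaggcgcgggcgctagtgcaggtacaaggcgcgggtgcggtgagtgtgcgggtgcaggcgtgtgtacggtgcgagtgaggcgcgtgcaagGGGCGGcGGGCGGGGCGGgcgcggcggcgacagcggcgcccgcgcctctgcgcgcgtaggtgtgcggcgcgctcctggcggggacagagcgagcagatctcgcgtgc
Camk2d (chr3:126596701-126597000, plus strand): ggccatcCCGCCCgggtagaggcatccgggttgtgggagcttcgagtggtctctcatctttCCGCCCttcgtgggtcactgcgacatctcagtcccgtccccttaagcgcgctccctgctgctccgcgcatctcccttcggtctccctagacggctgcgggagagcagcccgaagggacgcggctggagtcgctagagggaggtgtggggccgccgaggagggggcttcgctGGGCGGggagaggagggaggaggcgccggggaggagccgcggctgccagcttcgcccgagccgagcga
Ppp3cb (chr14:20546524-20546823, minus strand): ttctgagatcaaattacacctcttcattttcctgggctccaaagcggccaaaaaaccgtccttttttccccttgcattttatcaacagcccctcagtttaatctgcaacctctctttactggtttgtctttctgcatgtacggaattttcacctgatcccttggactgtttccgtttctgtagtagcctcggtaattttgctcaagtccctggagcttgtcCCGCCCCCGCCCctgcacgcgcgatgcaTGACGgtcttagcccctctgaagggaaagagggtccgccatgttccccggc
The GC box occurred 3 times in Camk2b, 3 in Camk2d, 2 in Ppp3cb, 4 in Ppp3r1 and 0 in Kalrn; 35.7% of 32851 promoters of the same length hold at least 1. The partial element occurred 1 time each in Ppp3cb and Ppp3r1, against 20.8% of all promoters with a match, and the full element TGACGTCA in 0 of the 5, against 1.79%. The GC content was 77.3% in Camk2b, 70.3% in Camk2d, 51.0% in Ppp3cb, 70.7% in Ppp3r1 and 60.3% in Kalrn, with a median of 52.7% over all promoters. A match is a description of letters and does not show binding.

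Values are normalised read counts, the deposited counts scaled between libraries. The libraries summed to between 32.3 M and 33.5 M normalised reads, and the spacing of low values put their depth before scaling at 25.6 M to 37.5 M reads. These depths are rough estimates, since only 56.3% to 76.9% of low values came within 0.15 of a whole multiple of that spacing. At such depth counting error was small for all 9 genes, whose lowest value in any library was 2064.3 (Camk4, HT vehicle replicate 6). Grin2b itself averaged 18948 ± 1882 in HT DCS, 18272 ± 1885 in HT vehicle, 18770 ± 2543 in WT DCS and 17910 ± 1189 in WT vehicle (SD; n = 6, 6, 5 and 6); a gene total does not show a point mutation, so it does not check the genotype labels. All 7 forebrain excitatory neuron markers were detected in every library, and so were the 10 cerebellar ones. Over all its 10 genes, the hindbrain list averaged 4.83 ± 0.79 on the log2 scale in HT DCS and 5.08 ± 0.33 in HT vehicle (SD). It averaged 5.28 ± 0.21 in WT DCS and 5.41 ± 0.24 in WT vehicle (SD). Of its genes, 2 were at 0 in at least 1 HT DCS library. Only the 9 of 10 that passed the filter on low values entered the tests and the correlations below. Within HT DCS the hindbrain mean was 3.55 in replicate 5 and 4.18 in replicate 6, against 5.09 to 5.56 in the others, so 2 libraries lowered that group. Summed hindbrain reads ranged from 682 to 1670 in HT DCS, 1136 to 1689 in HT vehicle, 1330 to 1684 in WT DCS and 1308 to 1858 in WT vehicle. In bulk RNA, fewer cells of a type and less RNA per cell cannot be told apart.

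Camk2a, the alpha subunit of CaMKII and a major protein of forebrain excitatory synapses, had the highest level of the 9 per length. The gene (ENSMUSG00000024617) lies on the plus strand at chr18:60925618-60988152 of GRCm38, as annotated in GENCODE M21. Its lowest, median and highest values were 49450, 55487 and 60197 normalised reads in HT DCS and 49769, 56298 and 58102 in HT vehicle. The 5 WT DCS libraries had 58472, 52535, 57226, 53626 and 52923, and WT vehicle had a lowest of 53124, a median of 55584 and a highest of 57040. The ranges of the 4 groups overlapped, and the lowest heterozygous libraries, HT DCS replicate 6 and HT vehicle replicate 6, lay below all wild-type libraries.

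Camk2b, the beta subunit that also binds actin, lies on the minus strand at chr11:5969644-6066362 (ENSMUSG00000057897). Its lowest, median and highest values were 27247, 29544 and 31204 in HT DCS and 28598, 29319 and 29948 in HT vehicle. The WT DCS libraries had 29517, 26776, 30045, 30088 and 29354, and WT vehicle had a lowest of 27717, a median of 29083 and a highest of 30126. WT DCS replicate 2 was the lowest of all 23, and the group ranges overlapped. The log2 ratio of Camk2a to Camk2b, the alpha to beta balance of the transcripts, was 0.897 ± 0.103 in HT DCS, 0.919 ± 0.099 in HT vehicle, 0.914 ± 0.070 in WT DCS and 0.926 ± 0.060 in WT vehicle (SD). These ratios are of whole-gene counts and lay within 1 SD of each other.

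Camk2d and Camk2g encode the delta and gamma subunits, which are expressed in many tissues. Camk2d (ENSMUSG00000053819) lies on the plus strand at chr3:126596302-126846326 and Camk2g (ENSMUSG00000021820) on the minus strand at chr14:20734875-20794088. For Camk2d the lowest, median and highest values were 4872, 5541 and 5844 in HT DCS and 5066, 5355 and 5557 in HT vehicle. The WT DCS libraries had 5151, 4803, 5221, 5561 and 5413, and WT vehicle had a lowest of 5058, a median of 5485 and a highest of 5609. WT DCS replicate 2 and HT DCS replicate 3 were the 2 lowest libraries, and the groups overlapped. Camk2g ranged from 7295 to 7824 in HT DCS, 7181 to 7849 in HT vehicle, 7274 to 7674 in WT DCS and 7465 to 7860 in WT vehicle, and it varied least of the 9 between libraries of a group.

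Camk4 (ENSMUSG00000038128; plus strand, chr18:32934931-33191228), the gene of the CREB kinase CaMKIV, varied most of the 9 between libraries of a group. Its lowest, median and highest values were 2286, 2769 and 2962 in HT DCS and 2064, 2865 and 3037 in HT vehicle. The WT DCS libraries had 2819, 2548, 2729, 3005 and 2993, and WT vehicle had a lowest of 2490, a median of 2896 and a highest of 2927. In each of the 3 groups of 6 the median lay near the top of the range, with 1 library well below the rest: HT DCS replicate 3, HT vehicle replicate 6 and WT vehicle replicate 2.

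Ppp3ca (ENSMUSG00000028161; plus strand, chr3:136670124-136937727) encodes the calcineurin A alpha catalytic subunit. Its lowest, median and highest values were 24866, 26917 and 27772 in HT DCS and 25408, 26070 and 27387 in HT vehicle. The WT DCS libraries had 28009, 26059, 28387, 27547 and 25998, and WT vehicle had a lowest of 26182, a median of 27305 and a highest of 28260. The median of HT vehicle lay below the lowest WT vehicle library, and the ranges of all groups overlapped. Ppp3cb (ENSMUSG00000021816; minus strand, chr14:20499364-20546573), the A beta catalytic subunit, ranged from 8981 to 10410 in HT DCS, 9345 to 10256 in HT vehicle, 9258 to 10633 in WT DCS and 9429 to 10035 in WT vehicle. The log2 ratio of Ppp3ca to Ppp3cb was 1.420 ± 0.097 in HT DCS, 1.423 ± 0.061 in HT vehicle, 1.474 ± 0.071 in WT DCS and 1.479 ± 0.061 in WT vehicle (SD), differences of about 1 SD or less.

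Ppp3r1 (ENSMUSG00000033953; plus strand, chr11:17159263-17200375) encodes the calcium-binding B subunit that calcineurin A needs for activity. It ranged from 18956 to 20743 in HT DCS, 19261 to 20356 in HT vehicle, 18662 to 20456 in WT DCS and 19042 to 20495 in WT vehicle. Kalrn (ENSMUSG00000061751; minus strand, chr16:33969073-34573532) ranged from 12484 to 14812 in HT DCS, 11892 to 14383 in HT vehicle, 12775 to 13785 in WT DCS and 12849 to 13766 in WT vehicle. The heterozygous ranges of Kalrn reached both above and below the wild-type ones. Across the 9 genes and 5 pairs of groups (45 pairs in all), the ranges overlapped in 45. How often ranges overlap over all genes was not computed, so this count does not set the 9 genes apart.

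**Figure D1:**
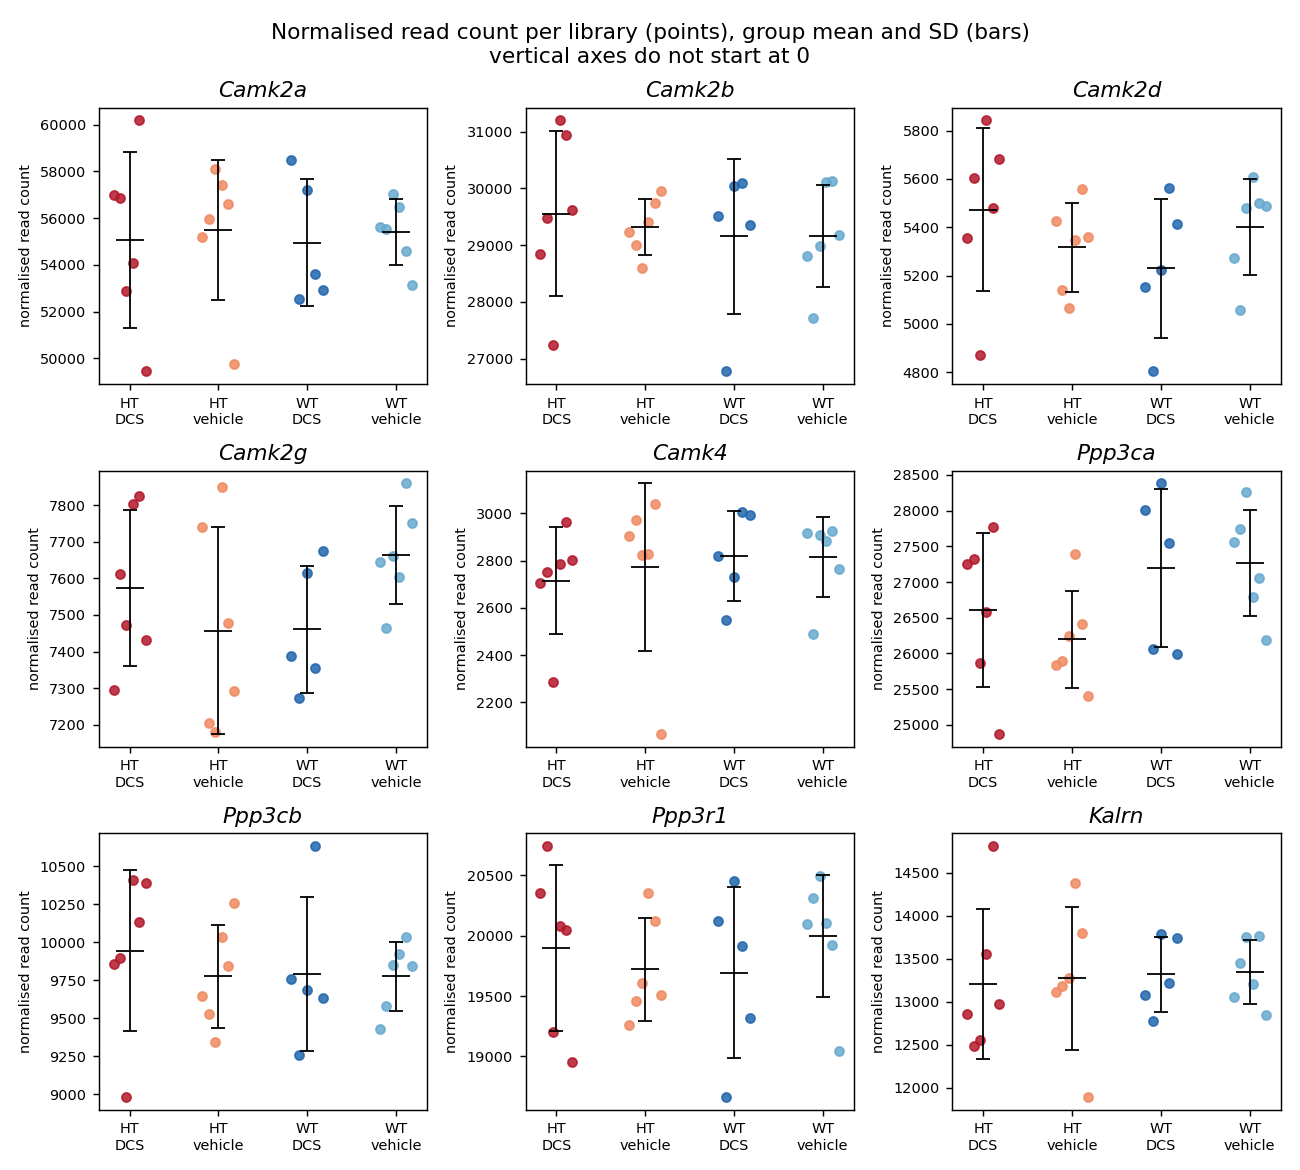
Normalised read count of each gene in each library (points, 1 panel per gene), with the group mean and SD as black bars; vertical axes do not start at 0. The groups overlap in every panel, and Camk4 shows single low libraries, down to 2064 in HT vehicle.

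Per kilobase of annotated exon sequence, Camk2a had a mean of 7401 normalised reads per kilobase over the 23 libraries, Ppp3r1 6144, Camk2b 3211, Ppp3ca 2685, Camk2g 1178, Ppp3cb 1115, Camk4 853, Kalrn 552 and Camk2d 238. Neighbours in this order did not overlap over the 23 libraries except Camk2g (1122 to 1228) and Ppp3cb (1020 to 1207), whose order held in 20 of 23. Exon length is the union of all annotated transcripts, which is long for Camk2d (28 transcripts) and Kalrn (21). Per kilobase of the longest transcript, Camk2b (7104) came above Ppp3r1 (6937), Ppp3cb (2564) above Camk2g (2037) and Kalrn (1273) above Camk4 (1023), so the order of these pairs depends on the length used. Camk2a came first and Camk2d (970) last by either length.

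The genotype comparison under vehicle asks whether the mutation is associated with another level of these transcripts without DCS. None of the 9 genes was called: limma on log2 normalised reads, with Benjamini-Hochberg adjustment over 17256 genes at 0.05, called 0 of 9 and 0 genes in all, a background of 0%. At an unadjusted p under 0.05 there were 0 of the 9 and 729 of all genes (4.22%). Ppp3ca had the largest difference, -0.057 on the log2 scale (HT vehicle minus WT vehicle; SE 0.029, 95% interval -0.117 to 0.002, adjusted p = 0.999). Camk2g followed at -0.040 ± 0.027 (SE). Camk2a differed by 0.001 ± 0.040 and Camk2b by 0.009 ± 0.032, and the difference for Camk4, -0.031 ± 0.074, became 0.051 without HT vehicle replicate 6. Of the 9 differences 2 were positive and 7 negative, with a median of -0.020 against 0 over all genes.

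Under DCS, the comparison of HT with WT again called 0 of 9 by limma and 0% of 17256 genes, with 0 of the 9 and 1302 genes (7.55%) at an unadjusted p under 0.05. Camk2d had the largest difference, 0.065 ± 0.042 (HT DCS minus WT DCS; SE, 95% interval -0.020 to 0.15, adjusted p = 0.735), and it was 0.035 without WT DCS replicate 2 and 0.098 without HT DCS replicate 3. The differences were 0.002 ± 0.042 for Camk2a, 0.020 ± 0.033 for Camk2b, -0.032 ± 0.031 for Ppp3ca and -0.056 ± 0.078 for Camk4. The value for Ppp3ca was -0.012 without HT DCS replicate 6 and -0.048 without WT DCS replicate 5. The remaining 4 genes lay between -0.014 (Kalrn) and 0.022 (Ppp3cb), smaller than their standard errors. In the same comparison the 7 oligodendrocyte markers were all lower in HT DCS, with a median of -0.236 and 7 of 7 at an unadjusted p under 0.05; their part in the values of the 9 genes was not tested. The medians of the other marker lists went both ways, from -0.41 (hindbrain) to 0.159 (microglia), with 0.046 for forebrain excitatory neurons.

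Averaged over both treatments, HT against WT gave 1 of the 9 genes an unadjusted p under 0.05, and limma called 0 of 9 and 0% of 17256 genes. That gene was Ppp3ca, with a difference of -0.045 ± 0.021 (HT minus WT; SE, 95% interval -0.088 to -0.001, unadjusted p = 0.0442, adjusted p = 0.685), which is not a call. Ppp3ca was lower in the heterozygote by a fitted -0.057 under vehicle and -0.032 under DCS, and its averaged difference stayed between -0.053 and -0.035 when each library was left out in turn. In the same comparison the 7 oligodendrocyte markers were all negative, with a median of -0.161 and 7 of 7 at an unadjusted p under 0.05, and so were the 8 striatal neuron markers, with a median of -0.119 and 6 of 8. Summed oligodendrocyte reads ranged from 316743 to 491427 in HT DCS, 382344 to 482162 in HT vehicle, 432604 to 508400 in WT DCS and 443952 to 508412 in WT vehicle, and no marker of either list was at 0 in any library. Forebrain excitatory markers went the other way, with 6 of 7 positive, a median of 0.042 and 2 at an unadjusted p under 0.05 by limma. So did the microglia markers (6 of 6 positive, median 0.149) and the endothelial ones (6 of 6, median 0.102, 3 at that p). The medians of the inhibitory neuron (-0.019), cerebellar (-0.031), hindbrain (-0.361) and astrocyte (-0.004) markers were negative. By limma, the oligodendrocyte median was -0.098 under vehicle alone, with 0 of 7 at an unadjusted p under 0.05. Under DCS alone it was -0.236, with 7 of 7. The striatal median was -0.117 with 4 of 8 under vehicle and -0.152 with 5 of 8 under DCS. The part of any of these markers in the value of Ppp3ca was not tested. In the averaged comparison 1237 of all genes (7.17%) had an unadjusted p under 0.05 by limma, and Ppp3ca ranked 1111th by p. Its partner subunit Ppp3r1 differed by -0.002 ± 0.019 and the other catalytic gene, Ppp3cb, by 0.011 ± 0.025. For Camk2a the interval of the averaged difference ran from -0.058 to 0.061 and for Camk2b from -0.033 to 0.061.

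DCS against vehicle in heterozygotes asks whether the treatment is associated with another transcript level in the mutant brain. Limma called 0 of 9 and 0% of 17256 genes, with 0 of the 9 and 828 genes (4.8%) at an unadjusted p under 0.05. Camk2d again had the largest difference, 0.040 ± 0.040 (HT DCS minus HT vehicle; SE, adjusted p = 0.974), and it was 0.021 without HT DCS replicate 4 and 0.073 without HT DCS replicate 3. Camk2a differed by -0.012 ± 0.040, Ppp3ca by 0.022 ± 0.029 and Camk4 by -0.023 ± 0.074. The value for Camk4 was -0.106 without HT vehicle replicate 6 and 0.026 without HT DCS replicate 3, so its sign rested on single libraries.

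In wild-type mice, DCS against vehicle likewise gave 0 of 9 calls by limma and 0% of 17256 genes, with 0 of the 9 and 497 genes (2.88%) at an unadjusted p under 0.05. The largest differences were those of Camk2d, -0.048 ± 0.042, and Camk2g, -0.039 ± 0.028 (WT DCS minus WT vehicle; SE, adjusted p = 1 for both). Without WT DCS replicate 2 the value for Camk2d was -0.017. Camk2b, Ppp3cb and Camk4 differed by 0.001 or less in size. Averaged over genotypes, the 9 DCS differences lay between -0.013 (Camk2a) and 0.013 (Ppp3cb), and limma called 0 of 9 and 0% of genes, with 0 of the 9 and 545 genes (3.16%) at an unadjusted p under 0.05.

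Whether the DCS difference itself differed between genotypes was tested as the interaction, HT DCS minus HT vehicle less WT DCS minus WT vehicle. Limma called 0 of 9 and 0% of 17256 genes, with 0 of the 9 and 756 genes (4.38%) at an unadjusted p under 0.05. Camk2d had the largest value, 0.088 ± 0.057 (SE, 95% interval -0.030 to 0.205, adjusted p = 0.984), with 0.057 without WT DCS replicate 2 and 0.121 without HT DCS replicate 3, and Camk2g had 0.062 ± 0.039 (-0.019 to 0.142). Camk2a had 0 ± 0.058. Treated heterozygotes set against untreated wild-type mice (HT DCS minus WT vehicle) gave 0 of 9 calls by limma and 0% of genes, with 0 of the 9 and 1239 genes (7.18%) at an unadjusted p under 0.05, and differences from -0.054 (Camk4) to 0.023 (Ppp3cb).

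A p above the threshold does not show equal levels, so the 95% intervals give what remained possible. For the 8 genes other than Camk4, the intervals of HT vehicle minus WT vehicle reached from 7.8% lower to 6.0% higher, and those of HT DCS minus WT DCS from 6.7% lower to 11% higher. The DCS intervals reached from 6.4% lower to 8.7% higher in heterozygotes and from 8.8% lower to 5.9% higher in wild-type mice. For Camk4 the intervals were wider, from -0.185 to 0.122 for HT vehicle minus WT vehicle and from -0.217 to 0.105 for HT DCS minus WT DCS on the log2 scale. The comparisons share libraries, so their values are not independent of each other.

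**Figure D2:**
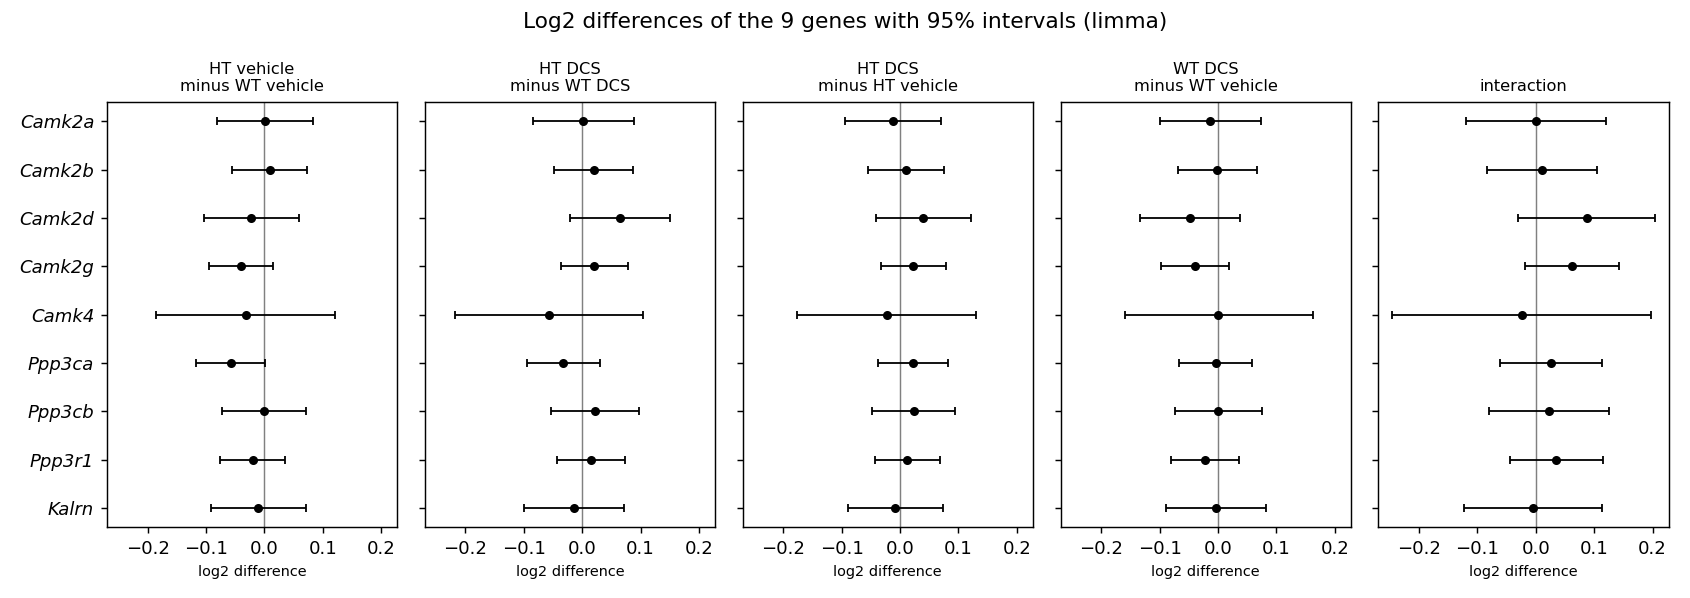
Log2 difference (horizontal axis) of each gene in 5 comparisons, with 95% intervals from limma. All intervals include 0, and those of Camk4 are the widest, from -0.247 to 0.198 in the interaction.

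The transcripts around the 9 genes were taken from 7 lists with 71 genes, all of which passed the filter on low values. Limma called 0 of the 71 in any of the 8 comparisons. Counts of the 71 at an unadjusted p under 0.05 are given with the percentage of all genes in brackets. HT vehicle against WT vehicle had 5 (4.22%), HT DCS against WT DCS 7 (7.55%) and genotype averaged over treatments 11 (7.17%). HT DCS against HT vehicle had 6 (4.8%), WT DCS against WT vehicle 1 (2.88%) and DCS averaged over genotypes 3 (3.16%). The interaction had 0 (4.38%) and HT DCS against WT vehicle 10 (7.18%). The lists were chosen with earlier results known, and their shares are read only beside these percentages of all genes.

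Of the 7 genes for calmodulin and the proteins that hold it, 2 were higher and 5 lower in HT averaged over treatments, with a median of -0.011 and 2 at an unadjusted p under 0.05, against 7.17% of all genes. Nrgn, the gene of neurogranin, which binds calmodulin when calcium is low, averaged 30704 ± 2315 in HT DCS, 28242 ± 1487 in HT vehicle, 28821 ± 2808 in WT DCS and 29274 ± 1218 in WT vehicle (SD). HT DCS had the highest mean of Nrgn; its difference from HT vehicle was 0.119 on the log2 scale, and limma did not call it.

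Of the 10 other calmodulin-dependent kinases, 5 were positive and 5 negative for genotype, with a median of -0.003. Camkk2, the kinase that activates CaMKIV, averaged 9123 ± 361 in HT DCS, 9178 ± 747 in HT vehicle, 9623 ± 497 in WT DCS and 9527 ± 392 in WT vehicle. Its averaged genotype difference was -0.067 ± 0.032 (SE, unadjusted p = 0.047, adjusted p = 0.691 by limma), also not a call. The 10 inhibitors, anchors and substrates of CaMKII had 3 positive and 7 negative differences and a median of -0.021. Camk2n1, a protein inhibitor of CaMKII, differed by -0.035 ± 0.036 and Rasgrf1, a Ras exchange factor that responds to calmodulin, by -0.022 ± 0.025. Actn2, an actinin that binds CaMKII, had -0.122 ± 0.035 (unadjusted p = 0.00188, adjusted p = 0.478 by limma) and is named after its value was seen.

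Of the 8 regulators, anchors and further subunits of calcineurin, 3 were positive and 5 negative, with a median of -0.020. Ppp3cc, the third catalytic subunit gene, averaged 689 ± 40 in HT DCS, 652 ± 41 in HT vehicle, 653 ± 33 in WT DCS and 673 ± 51 in WT vehicle. The calcineurin inhibitor gene Rcan2 differed by -0.078 ± 0.042 between genotypes and Akap5, the anchor of calcineurin near synaptic receptors, by -0.018 ± 0.026. Of the 13 substrates of calcineurin and genes of the phosphatase 1 cascade, 6 were positive and 7 negative, with a median of -0.001. Nfatc3, a calcineurin-regulated transcription factor, differed by -0.045 ± 0.042. Ppp1r1b encodes DARPP-32, a phosphatase 1 inhibitor that calcineurin dephosphorylates and that striatal projection neurons express strongly. It averaged 5914 ± 300 in HT DCS, 5943 ± 387 in HT vehicle, 6165 ± 553 in WT DCS and 6490 ± 384 in WT vehicle, with an averaged genotype difference of -0.092 ± 0.037 (unadjusted p = 0.0181, adjusted p = 0.636 by limma). In the same comparison all 8 striatal neuron markers were negative, with a median of -0.119 and 6 of 8 at an unadjusted p under 0.05. Over all genes 7.17% had such a p by limma, and 49.5% of the differences were positive. The summed reads of the striatal markers ranged from 10055 to 11487 in HT DCS and 10362 to 11471 in HT vehicle. They ranged from 10934 to 12724 in WT DCS and 11261 to 13851 in WT vehicle. The part of these markers in the value of Ppp1r1b was not tested. Nfatc4, the gene with the largest positive value among the 71, differed by 0.309 ± 0.113 (adjusted p = 0.615 by limma) and is named after its value was seen.

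Of the 15 guanine nucleotide exchange factors of spines and their targets, 6 were positive and 9 negative for genotype, with a median of -0.006. Trio, the paralogue of Kalrn, differed by 0.020 ± 0.024, Tiam1, a Rac exchange factor that CaMKII binds, by -0.011 ± 0.025 and the GTPase gene Rac1 by -0.015 ± 0.018, while Kalrn itself had -0.012 ± 0.029. Of the 8 nuclear calcium targets, 5 were positive and 3 negative, with a median of 0.022. Creb1, the gene of the transcription factor CREB, differed by 0.024 ± 0.035. Mef2c, a calcium-responsive transcription factor gene, averaged 16260 ± 1088 in HT DCS, 15813 ± 572 in HT vehicle, 15131 ± 841 in WT DCS and 15143 ± 691 in WT vehicle, and its averaged genotype difference was 0.083 ± 0.030 (unadjusted p = 0.0101, adjusted p = 0.615 by limma).

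**Figure D3:**
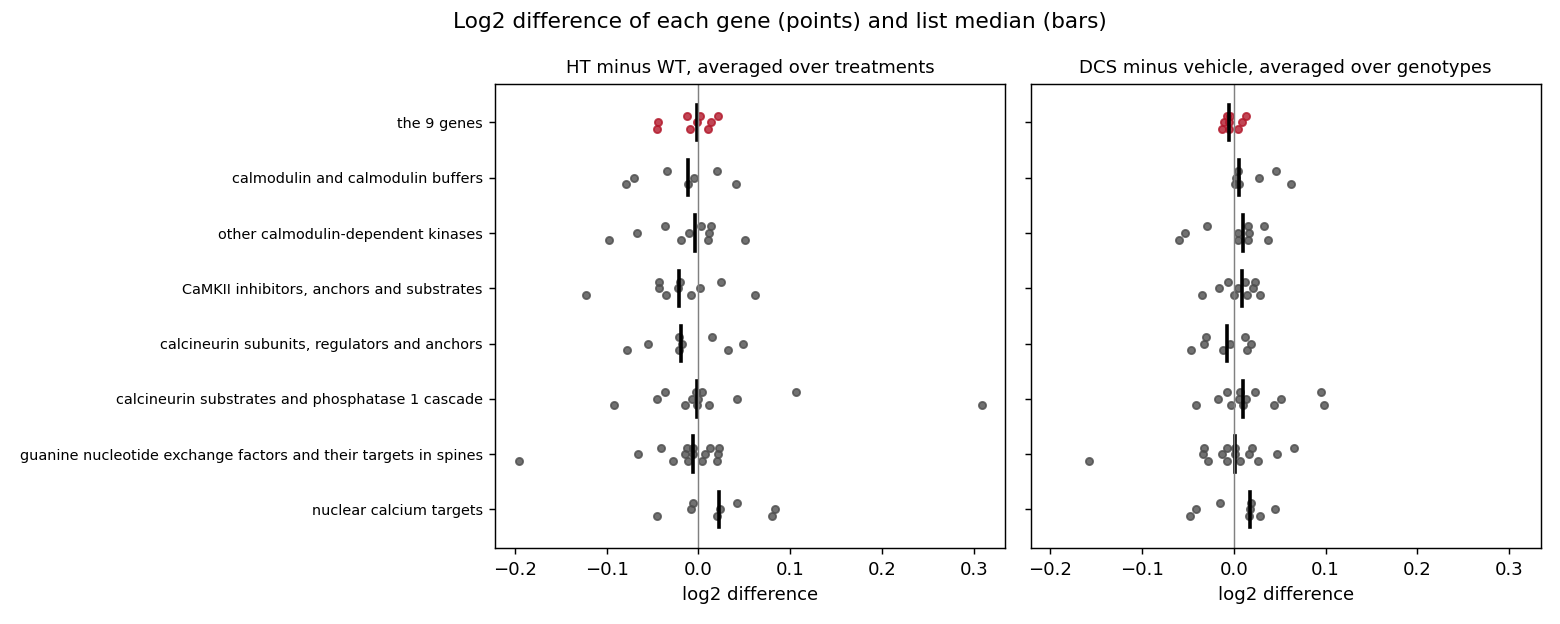
Log2 difference (horizontal axis) of each gene (points) in the 7 pathway lists and the 9 genes, with list medians as bars, for genotype (left) and DCS (right). The 9 genes lie between -0.045 and 0.021 for genotype and between -0.013 and 0.013 for DCS; the points farthest out on the left panel are Nfatc4 (0.309) and Disc1 (-0.196).

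Between libraries of the same group the 9 genes differed in how much they varied. The residual SD on the log2 scale was 0.040 for Camk2g, 0.043 for Ppp3r1, 0.049 for Ppp3ca, 0.055 for Camk2b, 0.061 for Ppp3cb, 0.071 for Camk2d, 0.073 for Kalrn, 0.076 for Camk2a and 0.140 for Camk4. Among 6529 genes with a mean of at least 1000 normalised reads, whose median SD was 0.072, 4.2% varied less than Camk2g and 94.6% varied less than Camk4. The lowest library of Camk4 in each group deviated from its group mean by -0.243 (HT DCS replicate 3), -0.413 (HT vehicle replicate 6), -0.143 (WT DCS replicate 2) and -0.174 (WT vehicle replicate 2).

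Of these 4 libraries, HT DCS replicate 3, WT DCS replicate 2 and WT vehicle replicate 2 were also the lowest of their groups for both Camk2b (-0.116, -0.122 and -0.072) and Camk2d (-0.165, -0.121 and -0.094). In HT vehicle replicate 6, Camk2a and Kalrn also lay low (-0.156 each), while Camk2b was at 0.031, Camk2d at 0.013 and Ppp3cb at 0.070. In HT DCS replicate 3, Ppp3cb also lay low (-0.145), with Camk2a at -0.056 and Ppp3ca at -0.040. HT DCS replicate 6 had low Camk2a (-0.153) and Ppp3ca (-0.097) and high Ppp3cb (0.065) and Camk2d (0.057). HT DCS replicate 5, the library lowest in cerebellar and hindbrain markers and in estimated depth, was the highest of its group for Kalrn (0.168), Camk2a (0.131) and Camk4 (0.130).

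**Figure D4:**
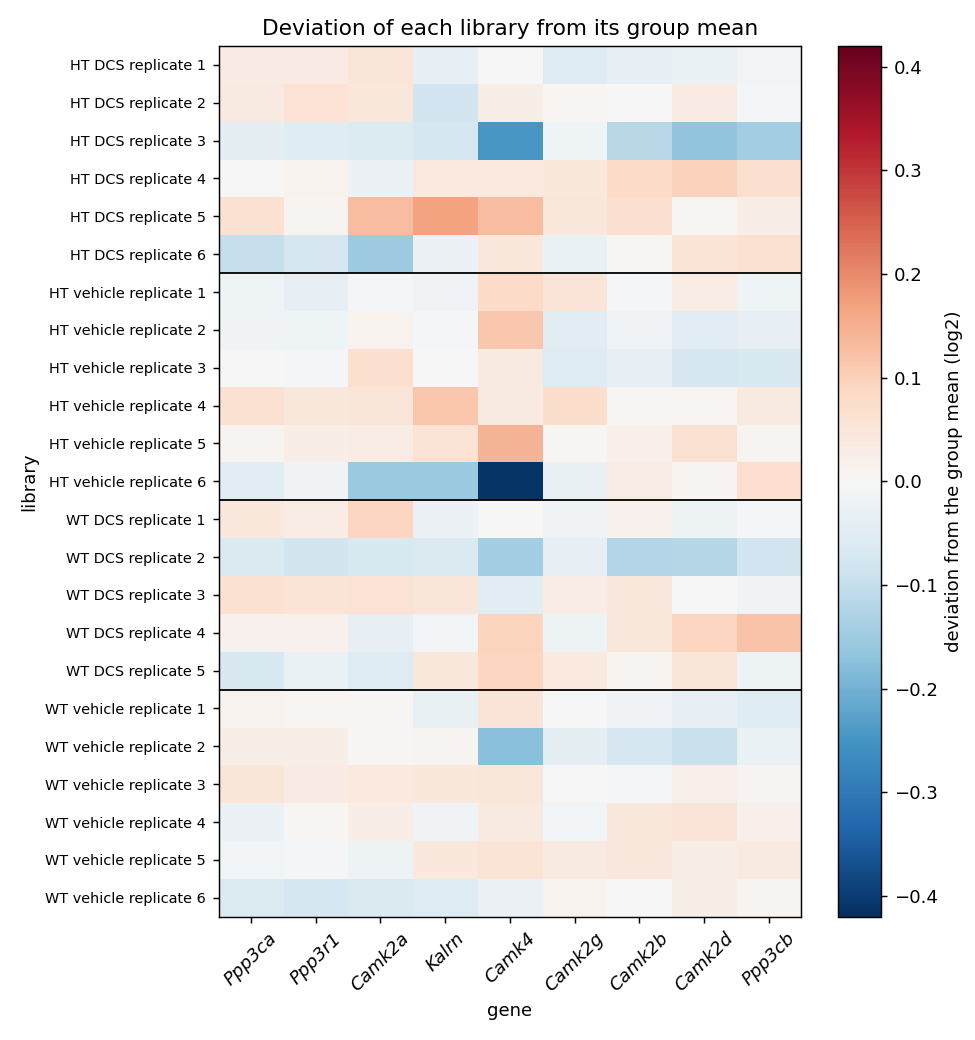
Deviation of each library (rows) from its group mean for each gene (columns), in log2 units. Camk4 in HT vehicle replicate 6 is the lowest value (-0.413), and the columns of Ppp3ca, Ppp3r1 and Camk2a and those of Camk2b, Camk2d and Ppp3cb share their high and low libraries.

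Pairs of the 9 genes were correlated over the 23 libraries, after each gene's group means had been removed, with permutation tests of 100000 resamples and Benjamini-Hochberg adjustment over the 36 pairs. These tests, and those with marker lists below, permuted all 23 libraries freely. Such permutation takes no account of the group means removed, so its p-values are too small. All values come from the same libraries and scaling, and 34 of the 36 Pearson coefficients were positive, with a median of 0.36. By Pearson's r 12 pairs had an adjusted p under 0.05, and by Spearman's ρ 8, all of them among the 12. Pairs of other genes were not tested in this way, so these counts do not set the 9 genes apart. Before the ranges of replicate numbers were taken into account, the strongest pairs fell into a set with Ppp3ca, Ppp3r1 and Camk2a and a set with Camk2b, Camk2d and Ppp3cb.

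The calcineurin A alpha gene Ppp3ca and the B subunit gene Ppp3r1 were the closest pair, with r = 0.89 and ρ = 0.88; the permutation p was 1e-05 for each, the smallest that 100000 resamples can give, and the adjusted p was 9e-05 and 0.00018. Leaving out the libraries farthest from the median of Ppp3ca, HT DCS replicate 6 and WT DCS replicate 5, left r at 0.88. Ppp3ca and Camk2a had r = 0.84 and ρ = 0.83 (permutation p = 1e-05, adjusted p = 9e-05 and 0.00018), and r = 0.81 without the 2 farthest libraries. Ppp3r1 and Camk2a had r = 0.69 and ρ = 0.71 (permutation p = 0.00023 and 0.00025, adjusted p = 0.0014 and 0.0017), and 0.69 without them. Within the 12 libraries numbered 1 to 3 and the 11 numbered 4 to 6, in that order, r was 0.97 and 0.87 for Ppp3ca with Ppp3r1, 0.83 and 0.83 for Ppp3ca with Camk2a, and 0.81 and 0.67 for Ppp3r1 with Camk2a. The relations thus held in both ranges of replicate numbers, which the labels do not call a batch.

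In the other set, Camk2b and Camk2d had r = 0.85 and ρ = 0.71 (permutation p = 1e-05 and 0.00028, adjusted p = 9e-05 and 0.0017). Camk2d and Ppp3cb had r = 0.84 and ρ = 0.73 (permutation p = 1e-05 and 8e-05, adjusted p = 9e-05 and 0.00072). Camk2b and Ppp3cb had r = 0.79 and ρ = 0.78 (permutation p = 2e-05 and 3e-05, adjusted p = 0.00014 and 0.00036). Without HT DCS replicate 3 and WT DCS replicate 2, r was 0.72, 0.71 and 0.64 for the 3 pairs in that order. Within the libraries numbered 1 to 3 r was 0.86, 0.87 and 0.77, but within those numbered 4 to 6 it was 0.29, 0.36 and 0.35, so these relations did not hold there at the same strength.

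These 3 genes also differed in level between the 2 ranges of replicate numbers. Camk2b and Camk2d lay above their group means in all 11 libraries numbered 4 to 6, against 2 and 3 of the 12 numbered 1 to 3, and Ppp3cb did so in 10 of 11, against 1 of 12. The mean deviation in numbers 4 to 6 less that in numbers 1 to 3 was 0.063 for Camk2b, 0.086 for Camk2d and 0.078 for Ppp3cb on the log2 scale, and -0.045 for Camk2a, -0.024 for Ppp3ca and -0.011 for Ppp3r1. For Camk2g, Camk4 and Kalrn it was 0.030, 0.043 and 0.038. The log2 ratio of Camk2a to Camk2b averaged 0.858 ± 0.080 in numbers 4 to 6 and 0.966 ± 0.030 in numbers 1 to 3, and that of Ppp3ca to Ppp3cb 1.393 ± 0.063 and 1.498 ± 0.042 in the same order (SD). A shared offset itself raises r, so the offset and the correlations of Camk2b, Camk2d and Ppp3cb are not separate observations. The cause of this offset, and how common it was over all genes, was not tested.

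The correlations were therefore recomputed after the mean of each group within each range had been removed, a choice made after seeing the data, with permutation of libraries within each group and range. Of the 36 pairs 34 were again positive, the median r was 0.54 and 14 pairs had an adjusted p under 0.05. Here too, no share over pairs of other genes was computed. Ppp3ca kept r = 0.90 with Ppp3r1 (adjusted p = 0.0018 by permutation) and 0.90 with Camk2a (adjusted p = 0.0023), and Ppp3r1 had 0.79 with Camk2a (adjusted p = 0.0031). Camk2b had 0.77 with Camk2d and 0.64 with Ppp3cb, and Camk2d had 0.71 with Ppp3cb (adjusted p = 0.025, 0.036 and 0.025 by permutation). Between the sets, however, Camk2b had r = 0.84 with Ppp3r1 and 0.70 with Ppp3ca (adjusted p = 0.025 and 0.035 by permutation), against 0.40 and 0.26 before. With the offset removed, the 2 sets were thus less clearly separate, although Camk2a still had 0.12 with Ppp3cb and 0.25 with Camk2d.

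With group means alone removed, no relation was detected between the catalytic genes of calcineurin: Ppp3ca and Ppp3cb had r = 0.11 and ρ = 0.14 (permutation p = 0.63 and 0.53, adjusted p = 0.67 and 0.64). The same held for the main CaMKII genes of the forebrain, Camk2a and Camk2b, with r = 0.18 and ρ = 0.09 (permutation p = 0.42 and 0.69, adjusted p = 0.47 and 0.71). Within libraries numbered 1 to 3 these pairs had r = 0.76 and 0.80, against 0.15 and 0.40 within those numbered 4 to 6, and with the means of the ranges removed they had 0.44 and 0.53 (adjusted p = 0.17 and 0.069 by permutation within each group and range). The pooled values of these pairs thus include the offset between the ranges. Over all 36 pairs the median r was 0.61 within numbers 1 to 3 and 0.35 within numbers 4 to 6, with 36 and 28 pairs positive. Camk4 and Kalrn had r = 0.64 and ρ = 0.57 (permutation p = 0.0014 and 0.0048, adjusted p = 0.0074 and 0.025), but r fell to 0.39 without HT DCS replicate 3 and HT vehicle replicate 6, so this relation rested largely on those libraries; it was 0.28 within numbers 1 to 3 and 0.77 within numbers 4 to 6. With the means of the ranges removed r was 0.66 (adjusted p = 0.087 by permutation within each group and range).

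**Figure D5:**
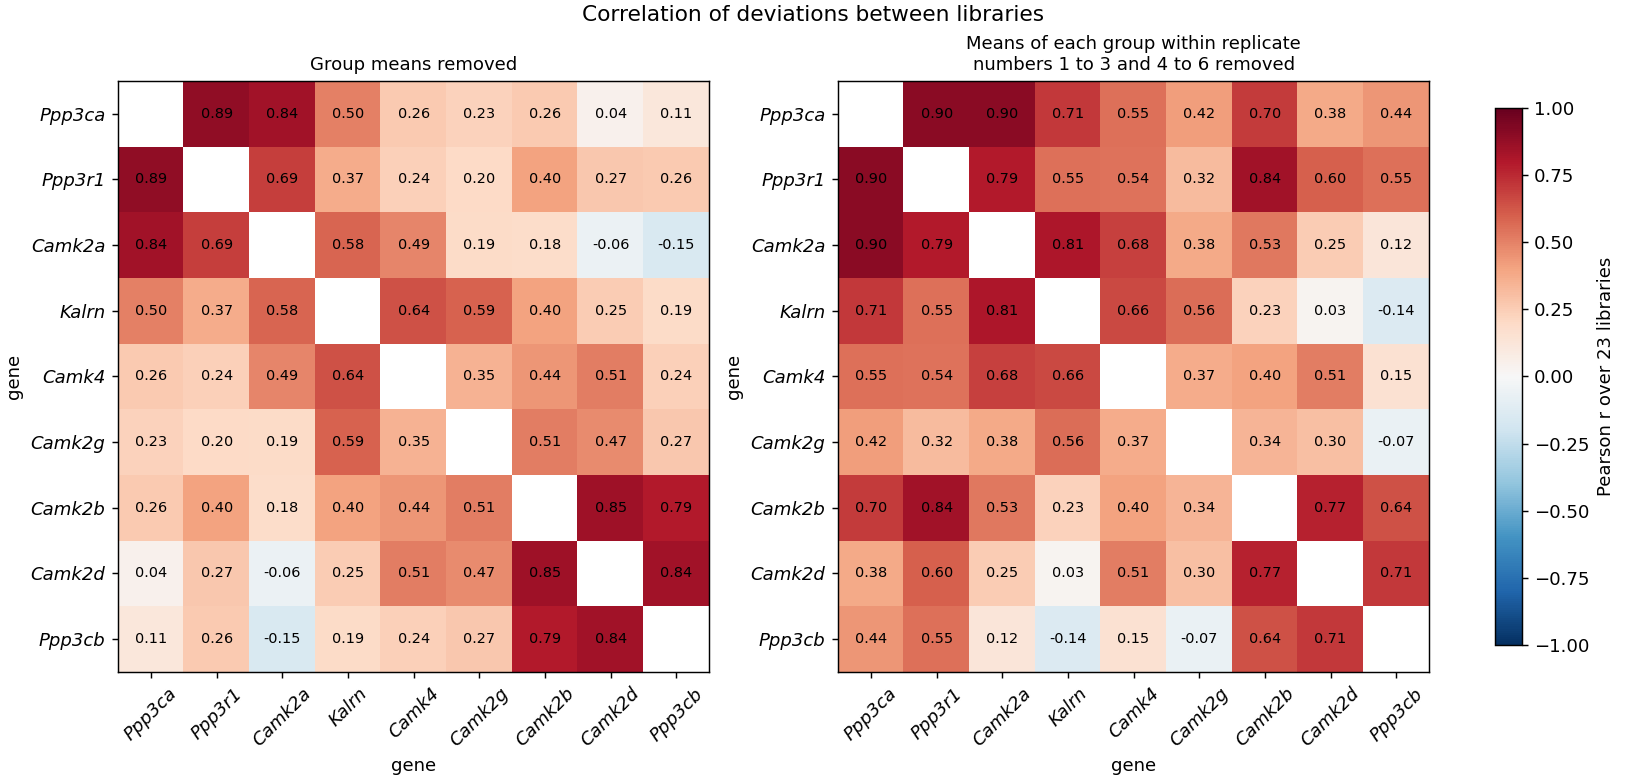
Pearson r for each pair of genes over 23 libraries, from deviations from the group means (left) and from the means of each group within replicate numbers 1 to 3 and 4 to 6 (right). On the left the values between Ppp3ca, Ppp3r1 or Camk2a and Camk2b, Camk2d or Ppp3cb run from -0.15 to 0.40; on the right they run from 0.12 to 0.84.

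The 9 genes were also set against the mean deviations of forebrain excitatory, cerebellar and hindbrain marker lists, 27 relations in all, since the labels give no brain region. Ppp3r1 followed the forebrain excitatory list with r = 0.76 and ρ = 0.79 (permutation p = 6e-05 and 3e-05, adjusted p = 0.0013 and 0.00067), and Ppp3ca with r = 0.73 and ρ = 0.76 (permutation p = 0.0001 and 5e-05, adjusted p = 0.0013 and 0.00067). Without WT DCS replicates 1 and 2, r was 0.71 and 0.70. Within numbers 1 to 3 and 4 to 6 it was 0.83 and 0.66 for Ppp3r1, and 0.88 and 0.68 for Ppp3ca. Camk2a, itself a gene of forebrain excitatory neurons, had r = 0.52 and ρ = 0.65 (permutation p = 0.01 and 0.0009, adjusted p = 0.071 and 0.0081), with 0.90 and 0.30 within the 2 ranges of numbers and 0.44 without WT DCS replicates 1 and 2. The summed reads of that list ranged from 58023 to 61768 in HT DCS, 58518 to 62134 in HT vehicle, 56817 to 62133 in WT DCS and 57881 to 60407 in WT vehicle.

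Camk2b, Camk2d and Ppp3cb had r of 0.38, 0.25 and 0.32 with the forebrain excitatory list (adjusted p of 0.27, 0.60 and 0.41 in permutation tests). Within numbers 1 to 3 and 4 to 6 r was 0.67 and 0.15 for Camk2b, 0.51 and 0.10 for Camk2d, and 0.57 and 0.52 for Ppp3cb. With the means of the ranges removed it was 0.68, 0.51 and 0.56 for the 3 genes (adjusted p = 0.20, 0.28 and 0.22 by permutation within each group and range), against 0.73 for Ppp3r1, 0.70 for Ppp3ca and 0.57 for Camk2a (adjusted p = 0.038, 0.038 and 0.044). Kalrn had the strongest relation with the cerebellar list, r = -0.56 and ρ = -0.42 (permutation p = 0.01 and 0.048, adjusted p = 0.071 and 0.26), but r was -0.14 without HT DCS replicates 2 and 5. With the hindbrain list the 9 values of r ran from -0.47 (Kalrn) to -0.04 (Ppp3r1), none with an adjusted p under 0.05 in permutation tests.

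The genes most like each of the 9 were taken as those with the highest r of deviations over the 23 libraries, among 12208 genes with a mean of at least 100. For Ppp3ca they were Pcsk2 (0.86), the CaMKII inhibitor gene Camk2n1 (0.82) and Dlgap1 (0.80), a scaffold gene of the postsynaptic density. For Camk2a they were C1ql3 (0.87), the Ras exchange factor gene Rasgrp1 (0.86) and Kif5c (0.85), and for Ppp3r1 Mib1 (0.85), Wbp4 (0.79) and Nptxr (0.79). Dcaf7 (0.90 with each) was on the lists of both Camk2b and Camk2d, beside Slc8a2 and Agap2 (0.91 each) for Camk2b and Nfib and Stard7 (0.91 each) for Camk2d.

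For Ppp3cb the nearest genes were Fgf13, Klhl23 and Pkia (0.91 each), the last an inhibitor of protein kinase A. For Camk4 they were Kcnma1 (0.93), a calcium-activated potassium channel gene, the GABA-A receptor gene Gabrb2 (0.92) and Kif1b (0.92). For Kalrn they were Tmem132d (0.88), Nos1ap (0.88) and Ppp1r9a (0.82), and for Camk2g Tgfbrap1 (0.81), Brsk2 (0.80) and Pabpn1 (0.78). These are the highest of many coefficients, from deviations that still hold the offset between the ranges of replicate numbers, and are given as a description, without a test.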

How the data were processed

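Stranded mRNA libraries of brain were sequenced, per the labels' protocols. The authors deposited 1 table of 18848 genes by 23 libraries holding a signal, that is read counts scaled between libraries with decimals; tools in the submitters' processing notes are DESeq2 1.26.0, Salmon 1.1.0 and R 3.6.2, on the build GRCm38, without role or order. Scaling hides differences in total RNA. Low values lay near multiples of a step, but only 56.3% to 76.9% came within 0.15 of a whole multiple, so reads were not recovered and no count test was run.

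The 9 genes and all lists were chosen with earlier results of these data known. limma 3.58.1 in R 4.3.3 was fitted to log2(value + 1) with 1 coefficient per group, trend and robust settings, two-sided, over the 17256 genes averaging 10 or more; all 9 genes passed. A fold change on this scale understates that of low genes. The fit was tested on simulated data. Symbols came from a table of identifiers, with 16 identifiers unmatched, and coordinates from GENCODE M21 on GRCm38. Correlations used Python 3.11.15 with numpy 2.4.6. Named genes are the 9, 16 fixed pathway genes, of which some are not reported here, and, for each of the 9, the 3 genes with the highest r, without predicted gene models; Actn2, Nfatc4 and Disc1 were named after their values were seen. Alternatives were pseudocounts of 0.5 and 5, quantile normalisation, no trend, a filter at a mean of 50 or none, array weights, only the groups compared, replicate numbers as a block, numbers 1 to 3 against 4 to 6 as a covariate, and leaving out each library; leaving out HT DCS replicates 5 and 6 together, and correlations with the means of each group within numbers 1 to 3 and 4 to 6 removed, were chosen after seeing the data.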

Additional observations from a re-analysis of the deposited data

Results flagged for a closer look

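In 7 of 60 combinations of a group and a gene, ratio or marker list, 1 library lay far below the others of its group. Chance alone gives about 1 in 20 for independent combinations. These combinations share libraries, and the ratios are built from the same genes, so the 7 do not show an excess over chance. HT vehicle replicate 6 had 49769 normalised reads of Camk2a, against 55192 to 58102 in the other libraries of its group, 2064.3 of Camk4, against 2825 to 3037, and a log2 ratio of Camk2a to Camk2b of 0.733, against 0.917 to 1.023. WT vehicle replicate 2 had 2490.3 of Camk4, against 2764 to 2927 in the other WT vehicle libraries. WT DCS replicate 2 had 26776 of Camk2b, against 29354 to 30088. The mean log2 level of the cerebellar markers was 11.122 in HT DCS replicate 5, against 11.474 to 11.56 in the others of its group, and that of the hindbrain markers was 4.926 in WT vehicle replicate 3, against 5.446 to 5.559.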

How the results depend on the processing

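None of the 9 genes was called by limma in any of the 8 comparisons under 12 other settings or with any of the 23 libraries left out, as far as each setting gave a value (fitting only the groups compared gives none for the interaction and the averages); the lowest adjusted p among these alternatives was 0.342. Of 837 alternative differences 44 changed sign, and of 1656 with 1 library left out 130 did, 0 of them where the value had been at least 1 SE from 0; the largest shifts were 0.0448 and 0.0827. A change of sign was counted as a reversal only for values of at least 1 SE.

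Over all genes, limma called 0 in each comparison. Genotype averaged over treatments gave 2 calls after quantile normalisation, 1 with array weights, 4 with replicate numbers 1 to 3 against 4 to 6 as a covariate, and 0 to 1 with 1 library left out (1 without HT DCS replicate 2 or HT vehicle replicate 6). With 1 library left out, HT DCS against HT vehicle gave 0 to 1 (1 without HT DCS replicate 4 or HT vehicle replicate 1), and HT DCS against WT DCS and HT DCS against WT vehicle gave 0 to 1 each (1 without HT vehicle replicate 6). The causes were not tested. Apart from the replicate block, the other counts of calls were 0.

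With the replicate number as a block, genotype averaged over treatments gave 6 calls by the title numbers and 6 by the description numbers, and HT DCS against WT vehicle gave 11 and 2; none was one of the 9 genes, and the averaged difference of Ppp3ca was -0.038 and -0.047. The titles and descriptions disagree on the number of 1 WT DCS library. The labels do not say that equal numbers pair libraries. The 33 pairs with the same title number in different groups had a mean correlation of 0.027 over genes (-0.068 to 0.303, 5 over 0.1). The 165 pairs with other title numbers in different groups had -0.005 (-0.167 to 0.154, 9 over 0.1). Among these, 66 pairs within the same range of numbers had a mean of 0.029. Whether equal numbers mark a shared source was not tested. Of the 9 genes, Camk4 varied most between libraries of a group and had the widest intervals.

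With the means of replicate numbers 1 to 3 and 4 to 6 removed, chosen after seeing the data, 20 of 36 pairs of the 9 genes had an adjusted p under 0.05 when libraries were permuted within the ranges and 14 when they were permuted within each group and range, against 12 with group means alone removed; of the 27 relations with marker lists 5 and 3 did, against 2. Permutation within the ranges takes no account of the means removed, so its p-values are too small, and for these correlations the text uses the other. The p-values with group means alone removed come from free permutation of all libraries. They take no account of the group means removed and are too small as well, so the counts are not on an equal footing.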
